A study of Homo sapiens with 4 samples.

Results

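The genes of the synaptic vesicle and its release machinery were examined in the established human neuroblastoma line SH-SY5Y, with and without sodium nitroprusside (SNP), which donates nitric oxide. The members were 46 genes chosen by name, of 58243 genes in each count table, and they comprise vesicle proteins, SNARE proteins, Rab GTPases, active zone scaffolds, endocytic proteins, and the neurexins and neuroligins that join both sides of a synapse. The control group held 2 libraries, a and b, of untreated cells with no agent named. The SNP group held 2 libraries, also a and b, of cells given SNP for 8 h. The treatment protocol, given for all 4 libraries, speaks of cells differentiated with retinoic acid, and the labels call the RNA of the SNP group oxidized. Several doses are mentioned without saying which one was sequenced. The labels do not say that the libraries of a group came from separate cultures, so p-values measure only the spread between these libraries, which may be technical.

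A neurotransmitter is loaded into small vesicles, which Rab GTPases and scaffold proteins bring to the active zone of the presynaptic membrane. There SNARE proteins on the vesicle (synaptobrevins, the VAMP genes) and on the plasma membrane (syntaxin and SNAP-25) zip together, complexins and priming factors hold the complex ready, and synaptotagmins trigger fusion when calcium enters. NSF and its SNAP adaptors then take the SNARE complex apart, and clathrin adaptors, dynamins and synaptojanin recover the membrane. Many of the same proteins serve the dense-core vesicles of neuroendocrine cells.

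The libraries held between 5613144 and 8056550 counts, so that 3 counts, the smallest amount treated here as above a count of 0, corresponded to 0.372 to 0.535 CPM (counts per 1000000 counts). These limits cover counting error only. Of 10 noradrenergic neuroblast markers, all passed the filter on low counts, 7 fell and 1, HAND2, rose. Their summed level was 4141 and 4177 CPM in the control libraries and 3156 and 3285 CPM in the SNP libraries. Of 8 mesenchymal markers, 6 passed the filter and 1, FOSL1, rose, and their summed level was 364 and 371 CPM in control against 342 and 331 CPM in SNP. Among all genes tested, 12.6% fell and 13.6% rose. The marker calls come from the main fit alone and were not read in the alternatives described below. The glial markers AQP4, MBP and OLIG2 and the leukocyte marker PTPRC were at 0 in every library. The glial list summed to at most 0.533 CPM in a library, and the list of leukocyte and endothelial markers to at most 1.82 CPM. The part of the fall of the neuroblast markers in the results below was not tested, and in bulk RNA fewer cells of a type and less RNA per cell cannot be told apart.

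Across the 46 members, 5 rose with SNP, 12 fell, 25 did not pass the test and 4 were left out by the filter on low counts. The 17 members that passed were 40.5% of the 42 tested, against 26.2% of all 14759 genes tested, at a threshold of 0.05 on the adjusted p. Adjusted p-values come from the quasi-likelihood test of edgeR, with the Benjamini-Hochberg method applied to all genes, unless DESeq2 is named. The members that rose were 11.9% of those tested, against 13.6% of all genes, and the members that fell were 28.6%, against 12.6% of all genes. The members were chosen with earlier results of these data known, so these shares describe the list and do not test it. The share above the background was that of the members that fell. With offsets for base composition, described below, that gap was smaller: 11.9% of the members fell, against 8.82% of all genes. Where the filter asked for a mean of 50 counts or more, 16 of 40 members and 33.1% of all genes passed. At that filter 11 of the 40 members fell, against 1831 of 11347 genes. The median log2 fold change of the members tested was -0.12, that of all genes -0.0042, and the members ranged from -0.94 for RAB3A and NRXN3 to 1.62 for DNM3. DNM3 was the 1 member whose log2 fold change reached 1 in size. The libraries of the groups did not overlap for 32 of the 42 members, or 76.2%, against 64.0% of all genes. SNP lay above control for 12 of these and below for 20.

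**Figure D1:**
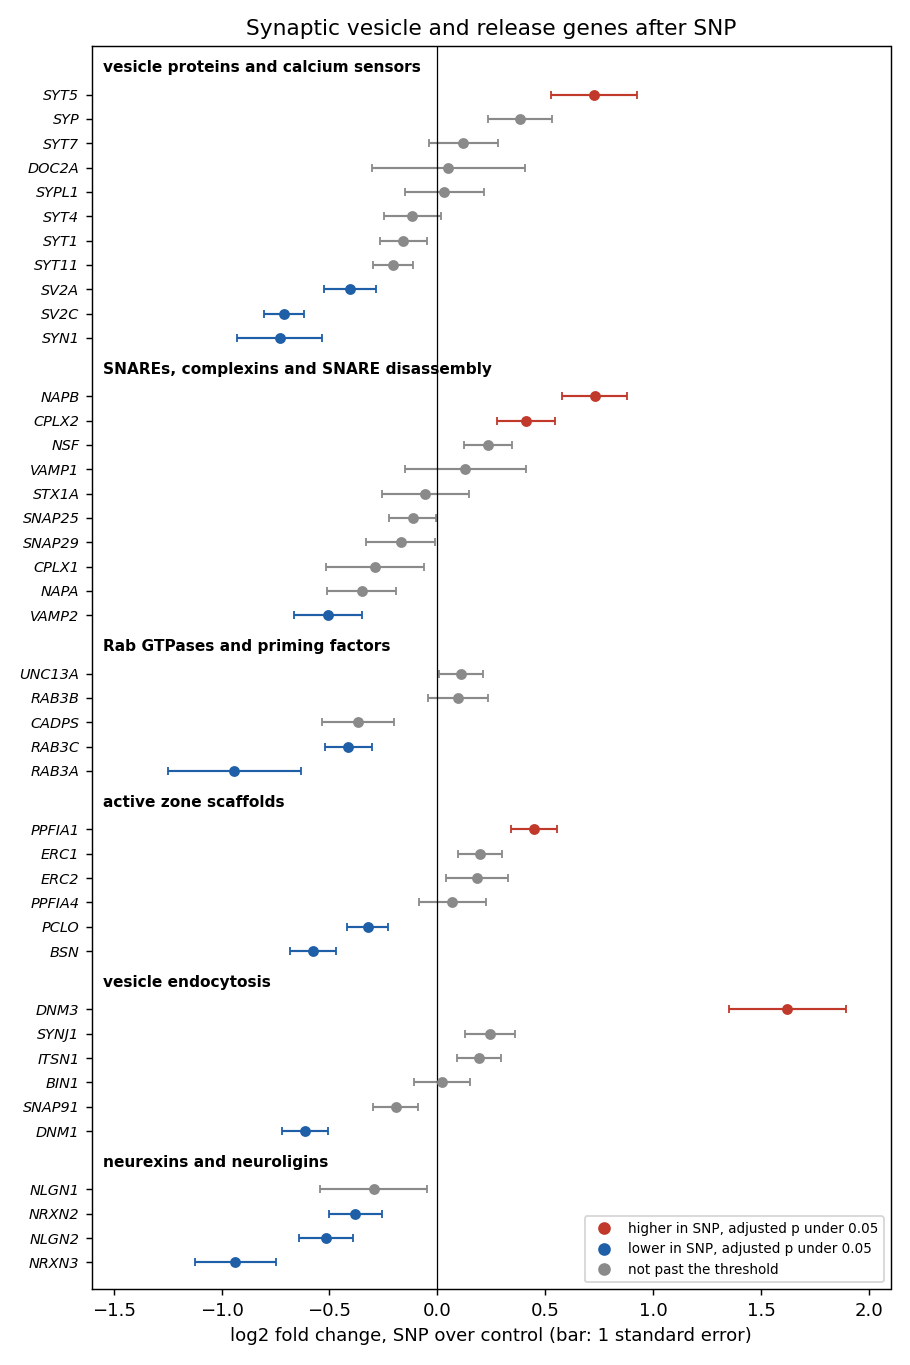
Log2 fold change of SNP over control for each of the 42 members tested, grouped by role, with bars of 1 standard error; colours mark members past the threshold. Most points lie between -1 and 1, with DNM3 at 1.62 the highest and the 3 neurexins and neuroligins that passed all to the left of 0.

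Summed over all 46 members, the share of the counts was 0.396% ± 0.0087 in control and 0.347% ± 0.0122 in SNP (SD, n = 2 each). SV2C alone carried much of that difference. Without it the share was 0.333% ± 0.0037 in control and 0.308% ± 0.0105 in SNP. On the TPM scale, which divides by transcript length, the members summed to 2266 ± 15.2 in control and 2201 ± 73.7 in SNP. The TPM scale moves the median of all genes tested by 0.11 on the log2 scale, and the 17 members that passed kept their direction on it.

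**Figure D2:**
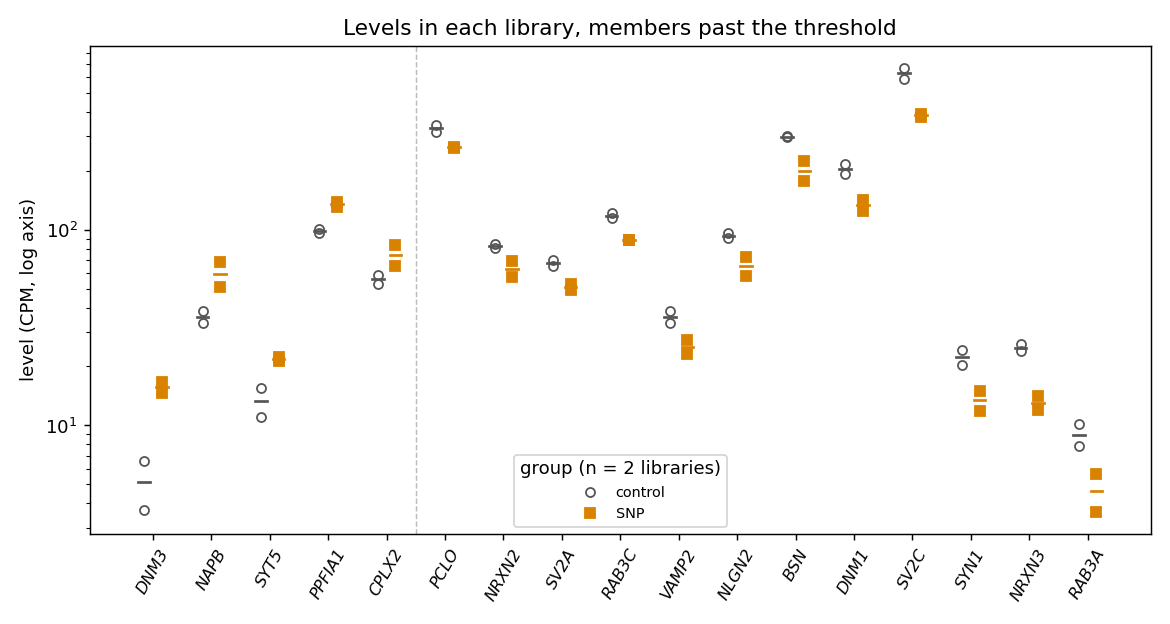
Level in CPM (log axis) of the 17 members that passed the test in each of the 4 libraries, with a short line at the mean of 2 libraries; open circles are control, filled squares SNP. The 5 members left of the dashed line were higher in both SNP libraries than in both control libraries, and the 12 on the right were lower.

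By TPM, which allows levels to be compared between genes, the most abundant members in control cells were SYT11 (265 ± 11.3), SV2C (245 ± 18.5), SNAP25 (155 ± 10.98), SYT4 (102 ± 7.85), DNM1 (88.7 ± 6.19) and BSN (86.4 ± 0.90, SD, n = 2 each). SYT11 and SV2C did not differ beyond their spread, nor did DNM1 and BSN. At the other end stood NRXN3 (7.55 ± 0.31), NLGN1 (4.54 ± 0.19), DOC2A (3.38 ± 0.98) and DNM3 (2.14 ± 0.87). In SNP cells DNM3 reached 7.04 ± 0.40 TPM and SV2C stood at 163 ± 9.82 TPM, between SYT11 at 250.4 ± 11 and SNAP25 at 155 ± 2.28. The 4 members that were not tested had few counts. RAB27B, a Rab of secretory granules, had counts of 6 and 4 in the control libraries and of 6 and 13 in the SNP libraries. CADPS2, a dense-core vesicle priming factor, had a single count in control b and 0 elsewhere. AMPH, encoding amphiphysin, had 0 and 1 against 1 and 1, and SH3GL2, encoding endophilin A1, had 0 and 2 against 2 and 0.

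The members differ in the base composition of their transcripts, and their fold changes followed it. Guanine minus cytosine content, given in percentage points over all annotated transcripts of a gene in GENCODE 29, ranged among the members that passed from -8.56 for SYN1 and -7.66 for RAB3A to 5.91 for CPLX2 and 6.15 for NAPB. Its median was 1.51 for the 5 members that rose, -2.33 for the 12 that fell and 1.16 for the 25 that did not pass. The stretches below are examples picked for their excess, so the contrast between them follows from the choice. Each is the stretch of 90 coding bases with the greatest excess of the base that its gene holds more of, for the 3 members that passed with the lowest values and the 2 with the highest, and capitals mark runs of at least 2 of that base.
SYN1: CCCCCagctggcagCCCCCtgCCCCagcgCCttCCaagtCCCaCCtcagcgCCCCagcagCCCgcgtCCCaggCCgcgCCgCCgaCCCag
RAB3A: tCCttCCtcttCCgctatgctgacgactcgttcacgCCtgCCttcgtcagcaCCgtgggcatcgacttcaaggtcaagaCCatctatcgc
VAMP2: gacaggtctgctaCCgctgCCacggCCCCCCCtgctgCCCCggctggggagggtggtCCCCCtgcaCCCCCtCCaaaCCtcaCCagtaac
CPLX2: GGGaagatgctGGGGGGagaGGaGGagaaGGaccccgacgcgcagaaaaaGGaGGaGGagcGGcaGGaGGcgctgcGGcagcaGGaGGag
NAPB: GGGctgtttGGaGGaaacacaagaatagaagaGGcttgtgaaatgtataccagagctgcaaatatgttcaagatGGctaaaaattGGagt
The SYN1 stretch is coding bases 1492 to 1581 of its longest coding transcript, within its proline-rich part, and holds 50 cytosines and 21 guanines. The RAB3A stretch (109 to 198) holds 33 cytosines and 18 guanines, and that of VAMP2 (4 to 93) holds 41 cytosines and 23 guanines. In the CPLX2 stretch (49 to 138) the balance is turned round, with 46 guanines and 15 cytosines. The NAPB stretch (88 to 177) holds 26 guanines and 10 cytosines. These are each gene's extremes, and the coding sequence as a whole is milder. It stands at -6.85 percentage points for SYN1, -0.75 for RAB3A, -0.84 for VAMP2, 19.51 for CPLX2 and 3.96 for NAPB. The region after the coding sequence stands at -18.63, -14.87, -2.78, -0.43 and 6.65 for the same genes.

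Over the 42 members tested, log2 fold change and guanine minus cytosine content had a Spearman correlation of 0.61. The same correlation was 0.48 over 14724 genes tested and 0.60 over 75 other synaptic genes. Exon length (0.035) and GC content (-0.20) had weaker correlations over the members. These are descriptions across genes, which share the 4 libraries and are not independent replicates. When all genes were put into 10 equal bins of guanine minus cytosine content, the median log2 fold change went from -0.43 in the lowest bin to 0.39 in the highest. SYN1, RAB3A, VAMP2, NLGN2 and BSN lay in the lowest bin, with log2 fold changes of -0.73, -0.94, -0.51, -0.52 and -0.58. The 3 other members in that bin did not pass the test, at -0.35 for NAPA, -0.29 for CPLX1 and 0.05 for DOC2A. The highest bin held CPLX2 and NAPB, with 0.41 and 0.73, and SYP, which did not pass, with 0.38. For DNM3 (1.62), SYT5 (0.73), SV2C (-0.71) and NRXN3 (-0.94), the medians of the bins that held them were -0.05, -0.27, -0.09 and -0.17.

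**Figure D3:**
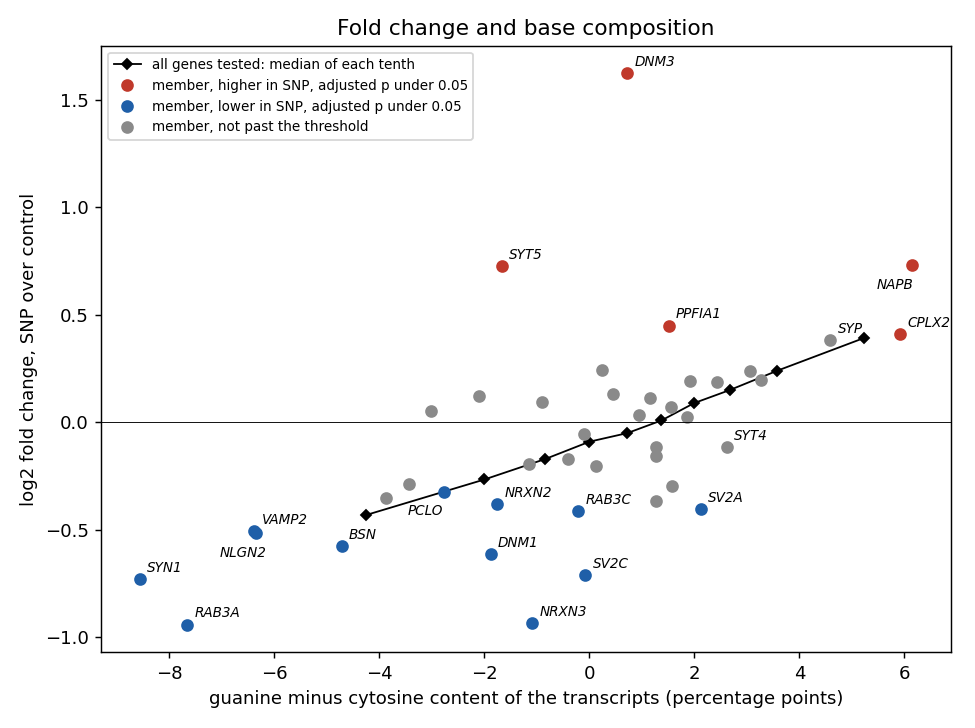
Log2 fold change of SNP over control against guanine minus cytosine content (percentage points) of the 42 members tested; the line joins the medians of 10 equal bins of all genes tested. The line climbs from -0.43 to 0.39. SYN1 and RAB3A lie to the left of its low end and below it. NAPB and CPLX2 lie to the right of its high end, NAPB well above it, and DNM3 lies far above the line.

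A fit with offsets that take length, GC content and guanine minus cytosine content out of each library called 9 members in place of 17, or 21.4% of the 42, against 18.6% of all genes. Of these, 4 were higher (9.52%, against 9.81% of all genes) and 5 lower (11.9%, against 8.82%). Of the 17 members, 8 kept their call: DNM3, SYT5 and PPFIA1 as higher, and SV2C, SV2A, DNM1, RAB3C and NRXN3 as lower. SYNJ1 passed in that fit as well, at 0.30 (adjusted p = 0.037). The other 9 lost their call, and 2 of them changed sign, VAMP2 to 0.05 and CPLX2 to -0.10. Why fold change and base composition moved together was not tested.

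**Figure D4:**
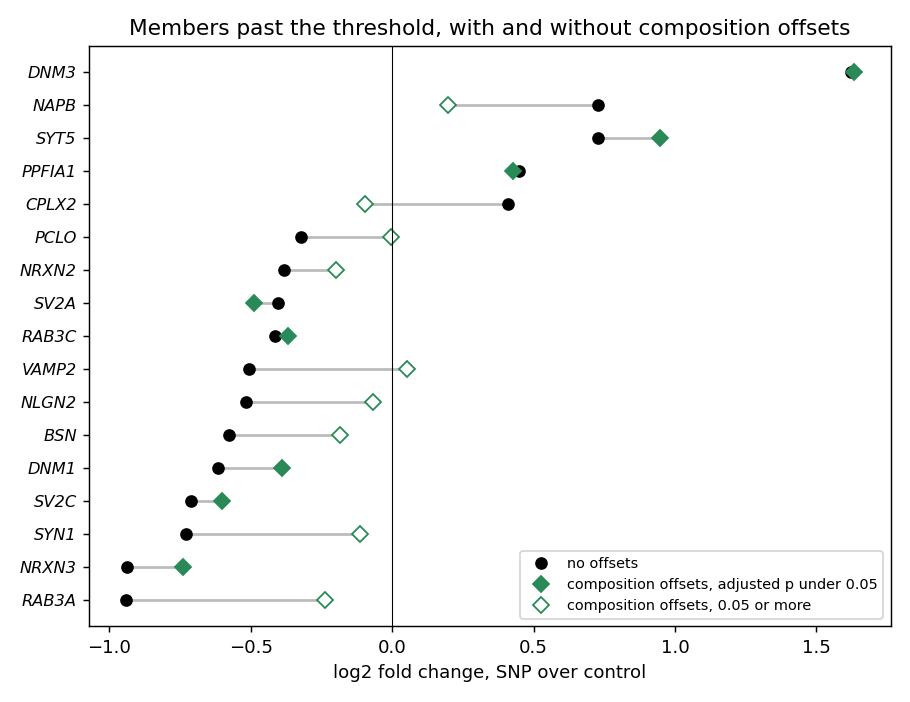
Log2 fold change of the 17 members that passed, without offsets and with offsets on length, GC and guanine minus cytosine content. DNM3, PPFIA1 and RAB3C moved little, while SYN1, PCLO and NLGN2 came close to 0, and VAMP2 and CPLX2 crossed it.

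Among the 11 vesicle proteins and calcium sensors, 1 rose, 3 fell and 7 did not pass, with a median log2 fold change of -0.12. Those that passed were 36.4% of the 11, against 26.2% of all genes, and groups this small give coarse shares. SV2C (chr5:76083172-76353939, plus strand), a transporter-like glycoprotein of the vesicle membrane, stood at 667 and 588 CPM in control and 376 and 391 CPM in SNP. Both SNP libraries lay far below both control libraries. SV2C was 1.64-fold lower (log2 fold change -0.71, SE 0.093, adjusted p = 1.2e-05), and it passed in each of the 14 alternatives run. Its relative SV2A (chr1:149903318-149917882, minus strand), the binding site of the antiepileptic drug levetiracetam, had 65.4 and 69.8 CPM in control and 52.9 and 49.1 CPM in SNP. The fall was smaller, with a log2 fold change of -0.40 (SE 0.12, adjusted p = 0.018). It missed the threshold without control a (adjusted p = 0.073) or control b (0.18), and in DESeq2 (0.067).

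SYN1 (chrX:47571898-47619943, minus strand) encodes synapsin I, which tethers vesicles to actin and to each other. It had 20.4 and 24.3 CPM in control and 11.8 and 15.04 CPM in SNP, and the groups did not overlap. The log2 fold change was -0.73 (SE 0.20, adjusted p = 0.0089). The call was lost without control b (adjusted p = 0.10) or SNP a (0.053), and with the composition offsets it came to -0.11 (adjusted p = 0.69). The cytosine-rich stretch printed above belongs to this gene. SYN1 is a textbook target of REST, the repressor that keeps neuronal genes off outside neurons. The 250 bases before its RefSeq start site, at chrX:47619858-47620107 on the minus strand of GRCh38.p14, are shown with capitals for the left REST half-site (TTCAGCACC, first base at position -233) and the cAMP response element (TGACGTCA, at -159).
SYN1 promoter: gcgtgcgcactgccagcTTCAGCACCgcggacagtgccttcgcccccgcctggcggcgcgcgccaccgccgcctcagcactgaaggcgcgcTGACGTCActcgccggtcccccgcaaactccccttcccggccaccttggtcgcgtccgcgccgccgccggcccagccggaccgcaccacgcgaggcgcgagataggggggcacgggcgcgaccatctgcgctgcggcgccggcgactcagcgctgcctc
Searched on both strands from 250 bases before to 50 after the start, the half-site was found in a promoter of 0.469% of 27305 RefSeq genes and the cAMP response element in 2.25%. Of the 46 members, 40 had a promoter in that table, and a gene with several is counted once. The left half-site was also in UNC13A, the right half-site (GGACAGCGC, 0.718% of genes) in BSN and UNC13A, and the cAMP response element also in SH3GL2. These 4 genes did not move alike: SYN1 and BSN fell, UNC13A had a log2 fold change of 0.11 and SH3GL2 was not tested. The search was for exact letters. In the SYN1 promoter printed above, TTCAGCACC is followed by gc and then GGACAGTGC, with T where the searched GGACAGCGC has C. That near match was not counted, so SYN1 is not shown to lack the right part of a REST site. A match of letters is a description and not a site of binding.

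SYT5 (chr19:55171199-55180441, minus strand), a synaptotagmin of dense-core vesicles, was the vesicle protein that rose. It had 11.1 and 15.4 CPM in control and 21.4 and 22.3 CPM in SNP. The SNP libraries were close together and both above control, with a log2 fold change of 0.73 (SE 0.20, adjusted p = 0.010). Without control a the adjusted p was 0.20, in DESeq2 it was 0.053, and with the composition offsets the change was 0.95 (adjusted p = 0.0037). The synaptotagmins with more counts did not pass, although SYT1 (adjusted p = 0.021) and SYT11 (0.026) did so with length and GC offsets. Without SNP a the log2 fold change of SYT4 was -0.36. With the composition offsets neither SYT1 (-0.20, adjusted p = 0.098) nor SYT11 (-0.11, adjusted p = 0.31) passed. SYT4 did not pass with them either (-0.28, adjusted p = 0.085), but did with these and the replicate block (-0.28, adjusted p = 0.036). SYT1, the fast sensor of evoked release, had 114 and 112 CPM in control and 107 and 95.6 CPM in SNP (log2 fold change -0.16). SYT11, which does not bind calcium, had 308 and 284 against 255 and 259 CPM (-0.21, adjusted p = 0.11). SYT4, a synaptotagmin first known as an immediate early gene, had -0.12, SYT7, a slow high-affinity sensor, 0.12, and DOC2A, a calcium-binding protein of vesicles, 0.05. SYP, encoding the abundant vesicle protein synaptophysin, had 27.6 and 29.1 CPM in control and 38.9 and 35.0 CPM in SNP. Its groups did not overlap, but the log2 fold change of 0.38 did not pass (adjusted p = 0.064). It passed with length and GC offsets (0.47, adjusted p = 0.020), and without SNP b the log2 fold change was 0.46. With the composition offsets SYP did not pass, at 0.03 (adjusted p = 0.90). Its wider expressed relative SYPL1 had 0.03 without offsets.

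Among the 10 SNAREs, complexins and disassembly factors, 2 rose, 1 fell and 7 did not pass, with a median log2 fold change of -0.09. Those that passed were 30% of the 10, against 26.2% of all genes. VAMP2 (chr17:8159149-8163546, minus strand), synaptobrevin 2, the main vesicle SNARE of central synapses, had 33.5 and 38.3 CPM in control and 23.3 and 27.2 CPM in SNP. Its log2 fold change was -0.51 (SE 0.16, adjusted p = 0.022). The call was lost without control b (adjusted p = 0.21) or SNP a (0.10), in DESeq2 (0.089), and, with the sign turned, under the composition offsets. VAMP2 also shares 430 exonic bases on its own strand with the gene AC129492.3, which had a total count of 0 over the 4 libraries. SNAP25 had 117 and 104 CPM in control and 105 and 98.7 CPM in SNP (log2 fold change -0.11, groups overlapping). STX1A, encoding syntaxin 1A, had -0.06, VAMP1, the synaptobrevin of motor neurons, 0.13, and SNAP29, a SNARE of autophagosome fusion, -0.17. STX1A shares 662 exonic bases with BUD23 on the other strand, VAMP1 339 with TAPBPL and SNAP29 225 with PI4KA, and the use of strand in counting is not given in the sources used here.

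NAPB (chr20:23374519-23421519, minus strand) encodes beta-SNAP, the brain form of the adaptor by which NSF grips the SNARE complex. It rose from 38.2 and 33.4 CPM in control to 68.2 and 50.7 CPM in SNP, with a log2 fold change of 0.73 (SE 0.15, adjusted p = 0.0011). It passed with each library left out (adjusted p at most 0.016). With the composition offsets the change was 0.20 (adjusted p = 0.27). Its ubiquitous relative NAPA, encoding alpha-SNAP, stood at 31.5 and 32.5 CPM in control and 23.3 and 26.8 CPM in SNP (-0.35, adjusted p = 0.11). NSF itself, the ATPase of this step, had 82.0 and 75.6 against 92.5 and 93.4 CPM (0.24, adjusted p = 0.13). CPLX2 (chr5:175796310-175884020, plus strand) encodes complexin 2, which clamps the assembled SNARE complex. It had 52.7 and 58.9 CPM in control and 65.2 and 83.1 CPM in SNP, with a log2 fold change of 0.41 (SE 0.13, adjusted p = 0.026). The call was lost without control a (0.24), control b (0.0501) or SNP b (0.21), and in DESeq2 (0.077). CPLX1, its relative at fast synapses, had 11.4 and 15.3 CPM in control and 10.4 and 11.3 CPM in SNP (-0.29, adjusted p = 0.38). The differences in response between NAPA and NAPB, and between CPLX1 and CPLX2, were not tested. The members of both pairs differ in guanine minus cytosine content, at -3.87 and 6.15 for NAPA and NAPB and at -3.44 and 5.91 for CPLX1 and CPLX2.

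Of the 7 Rab GTPases and priming factors, 5 were tested, 2 fell and none rose, with a median log2 fold change of -0.37. The 2 that passed were 40% of those tested, against 26.2% of all genes. RAB3A (chr19:18196784-18204074, minus strand), the main Rab of synaptic vesicles, was thinly counted: 51 and 57 reads in the control libraries, 45 and 28 in the SNP libraries. These correspond to 7.87 and 10.1 CPM in control and 5.67 and 3.63 CPM in SNP. The fall of 1.92-fold (log2 fold change -0.94, SE 0.31, adjusted p = 0.028) had a larger error than that of the other members that passed. The call was lost without control b (adjusted p = 0.18) or SNP b (0.16), in DESeq2 (0.12), with length and GC offsets (0.097) and with the composition offsets, where it was -0.24 (0.65). RAB3A shares 165 exonic bases with MPV17L2 on the other strand, which had a total of 125 counts and a log2 fold change of -0.88, so the reads of this pair may not be separate. RAB3C (chr5:58582221-58859394, plus strand), a vesicle Rab with far more counts, had 121 and 114 CPM in control and 88.4 and 88.3 CPM in SNP. Its log2 fold change was -0.41 (SE 0.11, adjusted p = 0.0070), lost without control a (0.11) and kept with the composition offsets (-0.37, adjusted p = 0.0072). RAB3B, a secretory Rab of endocrine cells, had 39.5 and 37.5 against 41.5 and 40.7 CPM (0.10). UNC13A, which encodes the essential priming factor Munc13-1, had 187 and 211 against 205 and 224 CPM (0.11, groups overlapping), and passed with length and GC offsets (0.22, adjusted p = 0.045). With the composition offsets UNC13A did not pass, at 0.099 (adjusted p = 0.37). CADPS, the dense-core vesicle priming factor CAPS1, had 27.6 and 28.8 against 23.9 and 19.7 CPM (-0.37, adjusted p = 0.11), and passed without SNP a (0.048).

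The 6 active zone scaffolds split, with 1 higher, 2 lower and 3 that did not pass, and a median log2 fold change of 0.13. The share that passed was 50% of these 6, against 26.2% of all genes. BSN (chr3:49554489-49671545, plus strand) and PCLO (chr7:82754013-83162930, minus strand) encode bassoon and piccolo, 2 giant related proteins that organize the active zone. BSN had 299 and 297 CPM in control and 177 and 223 CPM in SNP. The control libraries were nearly equal and the SNP libraries both lower but apart from each other. The fall was 1.49-fold (log2 fold change -0.58, SE 0.11, adjusted p = 4.5e-04), and it passed with each library left out. PCLO had 342 and 314 CPM in control and 263 and 261 CPM in SNP, a smaller fall (-0.32, SE 0.094, adjusted p = 0.014) that was lost without control a (0.20). With the composition offsets neither passed, at -0.18 for BSN (adjusted p = 0.071) and -0.0036 for PCLO (0.98). PPFIA1 (chr11:70270700-70385312, plus strand), the broadly expressed liprin-alpha 1, rose from 101 and 96.4 CPM to 138 and 130 CPM (0.45, SE 0.11, adjusted p = 0.0034). The adjusted p was 0.062 without control b, and with the composition offsets the change was 0.43 (0.0031). It shares 549 exonic bases with the antisense gene AP000487.1, which had 298 counts in all against 3301 for PPFIA1. Its brain-enriched relative PPFIA4 had 0.07. ERC1 and ERC2, the ELKS scaffolds that bind the RIM proteins, had 0.20 (adjusted p = 0.16) and 0.19 (0.37), with both SNP libraries above both control libraries in each.

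Of the 8 endocytic genes, 6 were tested, 1 rose, 1 fell and 4 did not pass, with a median log2 fold change of 0.11. The share that passed was 33.3% of the 6 tested, against 26.2% of all genes. DNM3 and DNM1 encode dynamins, the GTPases that pinch vesicles off the membrane. DNM3 (chr1:171841498-172418466, plus strand) was counted 24 and 37 times in the control libraries and 132 and 113 times in the SNP libraries. In CPM these were 3.70 and 6.57 in control and 16.6 and 14.7 in SNP, so both SNP libraries stood well above the higher control library. DNM3 was 3.08-fold higher (log2 fold change 1.62, SE 0.27, adjusted p = 1.6e-04). The estimate lay between 1.24 and 2.07 over the 14 alternatives, and it passed in each. DNM1 (chr9:128191655-128255248, plus strand), the dynamin of presynaptic endocytosis, went the other way, from 215 and 191 CPM in control to 124 and 141 CPM in SNP. It was 1.53-fold lower (-0.62, SE 0.11, adjusted p = 2.3e-04) and passed in each of the 14 alternatives, with -0.39 under the composition offsets (adjusted p = 0.0064). In TPM, DNM1 remained the more abundant, at 63.1 ± 7.74 against 7.04 ± 0.40 for DNM3 in SNP (SD, n = 2 each). The difference in response between DNM1 and DNM3 was not tested. DNM2, the ubiquitous dynamin and no member, had 160 and 160 CPM in control and 109 and 127 CPM in SNP (log2 fold change -0.44, adjusted p = 0.0043). With the composition offsets it did not pass, at -0.13 (adjusted p = 0.24). DNM2 was chosen for mention after its values were seen.

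The promoter of DNM3, the member with the largest change, is shown as the 250 bases before its start site, at chr1:171841248-171841497 on the plus strand of GRCh38.p14. Capitals mark the Sp1 box (GGGCGGGG), whose first bases lie at -93, -77 and -71, the last pair overlapping.
DNM3 promoter: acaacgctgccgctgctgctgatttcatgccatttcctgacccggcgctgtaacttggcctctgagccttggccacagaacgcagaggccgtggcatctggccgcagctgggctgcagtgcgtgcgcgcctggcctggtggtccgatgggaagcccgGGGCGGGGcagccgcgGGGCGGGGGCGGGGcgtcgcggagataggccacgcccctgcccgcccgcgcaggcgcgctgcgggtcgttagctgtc
The Sp1 box was in a promoter of 26.1% of all RefSeq genes and of 25 of the 40 members. It was found for 4 of the 5 members that rose, 4 of the 11 that fell and had a promoter in the table, 15 of the 21 that did not pass and 2 of the 3 that were not tested.

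The remaining endocytic genes had smaller values. SYNJ1, encoding the lipid phosphatase synaptojanin 1 that helps new vesicles shed clathrin, had 69.2 and 61.8 CPM in control and 78.6 and 76.8 CPM in SNP (0.24, adjusted p = 0.13). ITSN1, the endocytic scaffold intersectin 1, had 148 and 143 against 171 and 162 CPM (0.19, adjusted p = 0.17), and passed with length and GC offsets (0.028). With the composition offsets ITSN1 did not pass, at 0.15 (adjusted p = 0.20). SNAP91, encoding the clathrin adaptor AP180, had 124 and 116 against 106 and 103 CPM (-0.19, adjusted p = 0.19). BIN1, the membrane-bending amphiphysin 2, had 0.02 with overlapping groups.

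Neurexins sit on the presynaptic membrane and bind neuroligins on the postsynaptic side. Of the 4 members of these families, 3 fell and NLGN1 did not pass, and the median log2 fold change was -0.45. The share that passed was 75%, against 26.2% of all genes, but it rests on 4 genes. NRXN3 (chr14:78170373-79868290, plus strand) had 25.9 and 24.0 CPM in control and 12.0 and 14.1 CPM in SNP. It was 1.91-fold lower (log2 fold change -0.94, SE 0.19, adjusted p = 8.6e-04) and passed in each of the 14 alternatives, with -0.74 under the composition offsets (0.0075). NLGN2 (chr17:7404874-7419860, plus strand), the neuroligin of inhibitory synapses, had 90.4 and 96.0 CPM in control and 57.9 and 72.5 CPM in SNP (-0.52, SE 0.12, adjusted p = 0.0038). It passed with each library left out, and with the composition offsets it was -0.07 (0.62). NRXN2 (chr11:64606174-64723188, minus strand) had 84.2 and 80.2 CPM in control and 57.3 and 69.1 CPM in SNP (-0.38, SE 0.12, adjusted p = 0.025). That call was lost without control a (0.18), control b (0.089) or SNP a (0.16), in DESeq2 (0.079) and with both kinds of offsets (0.079 and 0.15). NLGN1, the neuroligin of excitatory synapses, had 10.2 and 9.41 CPM in control and 7.81 and 8.17 CPM in SNP (-0.30, adjusted p = 0.42). The 4 log2 fold changes were negative in each alternative run.

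The wider pathway was read from a list of 90 other synaptic genes. Of these, 75 were tested and 21 passed (28.0%, against 26.2% of all genes), with 9 higher, 12 lower and a median log2 fold change of -0.04, so the list as a whole stood near the background. The largest rises among well-counted genes were in STX4, STX3, LIN7C and SYNJ2. STX4, a plasma membrane syntaxin of non-neuronal exocytosis, had 7.87 and 9.05 CPM in control and 23.5 and 21.9 CPM in SNP (log2 fold change 1.43, adjusted p = 3.8e-05). STX3, a syntaxin of apical membranes and ribbon synapses, had 0.93, LIN7C, a scaffold of the CASK complex, 0.78, and SYNJ2, the relative of SYNJ1, 0.74. The largest falls were in SYNGR2, AP2A1, RPH3A and AP2S1. SYNGR2, a synaptogyrin found outside neurons, had 14.03 and 19.2 CPM in control and 7.93 and 10.4 CPM in SNP (-0.85, adjusted p = 0.0096). AP2A1 and AP2S1, subunits of the clathrin adaptor AP-2, had -0.85 and -0.68, and RPH3A, the Rab3 effector rabphilin, had 141 and 115 CPM in control and 81.4 and 75.5 CPM in SNP (-0.71, adjusted p = 1.4e-04). With the composition offsets SYNGR2 (adjusted p = 0.086) and AP2S1 (0.15) did not pass, and STX4 and LIN7C passed at 0.84 and 0.49. In DESeq2, STX3 (adjusted p = 0.057), SYNGR2 (0.051) and AP2S1 (0.054) did not pass.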

How the data were processed

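RNA sequencing tables of 4 SH-SY5Y libraries (2 control, 2 SNP) were used, grouped by sample title. Per the labels' protocols, a phenol reagent was used to isolate RNA, which was read at 75 bp and a labelled depth of 40 M reads. The count tables held far fewer, between 5613144 and 8056550 counts per library. The genome build was GRCh38, per the submitters' processing notes, and the aligner, counter and annotation are not given in the sources used here. The values tested were the deposited read counts of each gene, whole numbers with no normalization. The authors' TPM values, also deposited, sum to 1000000 per library and were used for levels between genes. The RPKM column deposited by the authors, scaled by length and depth per the file headers, was not tested.

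Counts were fitted with edgeR 4.0.16 in R 4.3.3 over all 4 libraries: filterByExpr (minimum count 10, minimum total 15), TMM, quasi-likelihood test of SNP against control, Benjamini-Hochberg adjustment over 14759 genes and a threshold of 0.05. Replicates differed by more than sampling noise (chi-square per degree of freedom 2.91 in control and 4.75 in SNP). Positions, exons and base composition came from GENCODE 29, promoters from RefSeq (GRCh38.p14). Offsets were per-library lowess curves (span 0.5). The 14 alternatives were 2 other filters, 2 other scalings, DESeq2 1.42.0, a replicate block, 3 sets of offsets, a threshold of 0.01 and leaving out each of the 4 libraries. Scripts were tested on simulated data.

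The members and gene lists were chosen with earlier results of these data known. The text names each member that passed with its values, the others by log2 fold change or counts, and, of the other synaptic genes, the 4 largest rises and 4 largest falls past the threshold with at least 5 CPM and no overlap between groups. Some genes of the lists are not reported here by name.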

Additional observations from a re-analysis of the deposited data

How the results depend on the processing

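The letters a and b are not said to pair the libraries, and same-lettered libraries deviated together only weakly (correlation 0.046). With the letter as a replicate block, the count of members called was again 17, 5 higher and 12 lower. Of the 17, 4 kept their call in all 14 alternatives (SV2C, DNM1, DNM3 and NRXN3), 7 in every fit without 1 library and 11 in DESeq2. Where a library was left out, the lone one of its group was assumed to vary like the other group.

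Over all genes, 3861 were called (2002 higher, 1859 lower), against 2415 (1272 and 1143) in DESeq2, 2224 (1156 and 1068) at a threshold of 0.01, and 2447 to 4144 (1244 to 2155 and 1162 to 1989) without 1 library. With the composition offsets 2743 genes were called (1298 lower), and 2728 (1311 lower) with these and the replicate block. The members called numbered 11 in DESeq2 (3 higher), 9 with the composition offsets (5 lower), 10 with these and the replicate block (6 lower), 10 at 0.01 (3 higher, 7 lower), and 10 to 16 without 1 library (3 to 5 higher, 7 to 11 lower). The share of all genes called was 16.4% in DESeq2, 18.6% with the composition offsets, 18.5% with these and the replicate block, and 15.1% at 0.01. With length and GC offsets 8 of the 42 members tested were higher, against 2217 of 14724 genes. The other synaptic genes called numbered 12 in DESeq2 and 13 to 25 without 1 library.

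Changes of sign befell 14 members, 2 of them among the 17. With length and GC offsets SYPL1 came to -0.064 and STX1A to 0.077. With the composition offsets, without and with the block, the log2 fold changes were 0.066 and 0.066 for STX1A, 0.054 and 0.053 for VAMP2, 0.10 and 0.11 for CPLX1, -0.10 and -0.10 for CPLX2, 0.0099 and 0.0095 for NAPA, -0.0041 and -0.0053 for ERC1, 0.0069 and 0.0077 for SNAP91, and -0.081 and -0.081 for BIN1. Without 1 library they ran from -0.36 to 0.090 for SYT4, -0.090 to 0.35 for SYT7, -0.22 to 0.35 for DOC2A, -0.23 to 0.26 for SYPL1, -0.17 to 0.053 for STX1A, -0.13 to 0.36 for VAMP1, -0.10 to 0.24 for PPFIA4 and -0.066 to 0.11 for BIN1. These fits differ from the main one by the offsets or by the library left out, and the cause of the changes of sign was not tested. Of the members that did not pass, 8 passed in at least 1 alternative. Depth limits DOC2A, RAB3A, VAMP1 and DNM3 in particular, with standard errors between 0.27 and 0.36.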
